A study of Mus musculus with 54 samples.

Results

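The 7 genes described here encode structural proteins of the basement membrane: the laminin chains alpha5 (Lama5), beta2 (Lamb2), beta3 (Lamb3) and gamma1 (Lamc1), the collagen IV chains alpha1 (Col4a1) and alpha2 (Col4a2), and nidogen-1 (Nid1). They were followed in whole mouse mammary glands through virgin life, pregnancy, lactation and involution. Every probe set whose platform annotation named exactly 1 of the 7 symbols was taken, which gave 10 of the 12488 probe sets, for 7 of the 8251 genes with a symbol of their own on the array. Lama5, Lamb3 and Lamc1 had 2 probe sets each and the other genes had 1.

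Each of the 54 one-channel Affymetrix arrays measured RNA from 1 inguinal gland of 1 mouse, with the lymph node removed. There were 3 mice, named A, B and C, at each of 18 time points. Virgin mice were taken at 6, 10 and 12 weeks of age. Pregnant mice were taken on days 1, 2, 3, 8.5, 12.5, 14.5 and 17.5, nursing mice on days 1, 3 and 7 of lactation, and mice in involution on days 1, 2, 3, 4 and 20. Mating took place at 12 weeks of age, and the involuting glands came from mice whose pups had been taken away after 7 days of lactation. The labels name no strain, genotype or drug. Values are MAS5 array signals on a linear scale, and differences are on the log2 scale after signals under 9.4 were set to 9.4.

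A basement membrane is a thin sheet of extracellular matrix that underlies epithelium and wraps fat cells, muscle cells and blood vessels. Laminins are trimers of an alpha, a beta and a gamma chain that polymerise on the cell surface, collagen IV forms a second network of trimers, and nidogen and perlecan (Hspg2) link both. In the mammary gland the sheet surrounds ducts and alveoli outside the myoepithelial layer, and contact with laminin through integrins is known to be needed for milk protein expression and for survival of the luminal cells. The chain encoded by Lamb3 assembles with that of Lama3 in the laminin that anchors epithelium through the integrin of Itga6 and Itgb4. The gamma1 chain is shared by most other laminins.

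Col4a1 and Col4a2 lie head to head and are transcribed away from each other, so their start regions are shown together. The third window belongs to Nid1, whose time course was most like theirs among the members. The last belongs to Lamb3. Its first probe set correlated with Col4a1 and Col4a2 at -0.18 and -0.17, and its second at 0.31 and 0.27. The windows are RefSeq promoter windows of 300 bases on GRCm38.p6. In the Col4a1 and Col4a2 windows capitals mark the 78 bases that both hold, read on opposite strands. In the other windows capitals mark matches to the motifs named below.
Col4a1, chr8:11312777-11313076, minus strand: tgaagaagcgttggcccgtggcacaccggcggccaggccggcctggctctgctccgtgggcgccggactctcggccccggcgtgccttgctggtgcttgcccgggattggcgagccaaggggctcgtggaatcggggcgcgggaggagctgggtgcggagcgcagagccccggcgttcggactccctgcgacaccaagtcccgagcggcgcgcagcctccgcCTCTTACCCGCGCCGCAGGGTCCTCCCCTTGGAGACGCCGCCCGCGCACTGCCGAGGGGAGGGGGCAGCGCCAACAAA
Col4a2, chr8:11312555-11312854, plus strand: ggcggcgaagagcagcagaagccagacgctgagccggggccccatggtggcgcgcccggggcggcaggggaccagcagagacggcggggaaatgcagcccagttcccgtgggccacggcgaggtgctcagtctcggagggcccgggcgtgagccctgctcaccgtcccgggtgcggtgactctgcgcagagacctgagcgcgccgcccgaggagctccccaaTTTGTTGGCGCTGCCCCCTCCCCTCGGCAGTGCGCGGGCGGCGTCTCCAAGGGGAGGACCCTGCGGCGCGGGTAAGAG
Nid1, chr13:13437352-13437651, plus strand: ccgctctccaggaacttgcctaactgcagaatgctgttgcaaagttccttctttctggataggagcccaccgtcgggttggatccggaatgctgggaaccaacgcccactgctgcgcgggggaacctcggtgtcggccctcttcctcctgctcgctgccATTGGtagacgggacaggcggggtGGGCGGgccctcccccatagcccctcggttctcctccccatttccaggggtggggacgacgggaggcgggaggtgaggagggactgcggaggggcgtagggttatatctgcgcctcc
Lamb3, chr1:193301744-193302043, plus strand, 1 of its 2 windows: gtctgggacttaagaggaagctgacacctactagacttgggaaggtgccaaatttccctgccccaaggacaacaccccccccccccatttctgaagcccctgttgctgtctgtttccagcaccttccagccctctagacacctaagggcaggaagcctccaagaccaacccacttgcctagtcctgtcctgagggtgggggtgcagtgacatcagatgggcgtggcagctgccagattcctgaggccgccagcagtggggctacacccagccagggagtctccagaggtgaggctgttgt

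The shared bases run from 11312777 to 11312854 of chromosome 8, and the annotated starts of the genes lie 21 bases apart. The motifs searched, 4 in all, were looked for on both strands, each on its own and with overlaps allowed: the AP-1 site TGANTCA, the GC box GGGCGG, the CCAAT box CCAAT and the STAT site TTCNNNGAA. Col4a1 held 1 GC box and 1 CCAAT box, Col4a2 held 3 and 1, and Nid1 held 1 of each. The GC box of Col4a1 and 1 of those of Col4a2 are the same bases, which lie in the shared stretch. The Lama5 window held 4 GC boxes and the Lamb2 window 1 STAT site, while neither Lamb3 window held any of the motifs. Of all 32851 windows that the reference lists, 35.7% held the GC box, 37.4% the CCAAT box, 7.81% the AP-1 site and 8.3% the STAT site, and the matches describe letters only. G and C made up 74% of the Col4a1 window and 59.3% of the Lamb3 window. The table gave no window for Lamc1.

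Of the 10 probe sets, 8 passed the filter on dim probe sets, which asked that some time point have its 3 arrays all over a signal of 22.8. The second Lama5 probe set had a median signal of 17.2 over the 54 arrays and the second Lamc1 probe set one of 10.9, and neither is tested below. The probe set that stands for Lamc1 and the second of Lamb3 carry the suffix for probes that can match relatives of a gene, so their values are uncertain. The summed signal of 6 milk genes ran from 772 to 1524 at virgin week 12 and from 76690 to 77794 at lactation day 7, which follows the labels. Of the markers of basal cells, Krt5 and Krt14 were too dim to be measured, and the basal list rests on Acta2, Myh11, Mylk, Cnn1, Trp63 and Tagln. A limma p-value here sets a difference against the spread among the 3 mice of a time point, pooled over all time points. That spread is moderated by a trend with signal over all probe sets. The exact permutation p-values for pairs of members come instead from rearranging arrays between stages.

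All 8 tested probe sets varied over the 18 time points in limma's moderated F test, with adjusted p-values from 6.6e-16 for Col4a1 to 0.00018 for Lamb2. Of all 8640 probe sets tested 88.1% did so, so variation over the cycle as such sets these genes apart from nothing. What differed among them was the course. Col4a1, Col4a2 and Nid1 were highest in virgin glands and lowest around the end of lactation. Lamb3, by its first probe set, was lowest in the younger virgin glands and highest from pregnancy day 17.5 to lactation day 3. Lama5 had peaks at pregnancy day 3 and involution day 2, with lower levels between them.

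**Figure D1:**
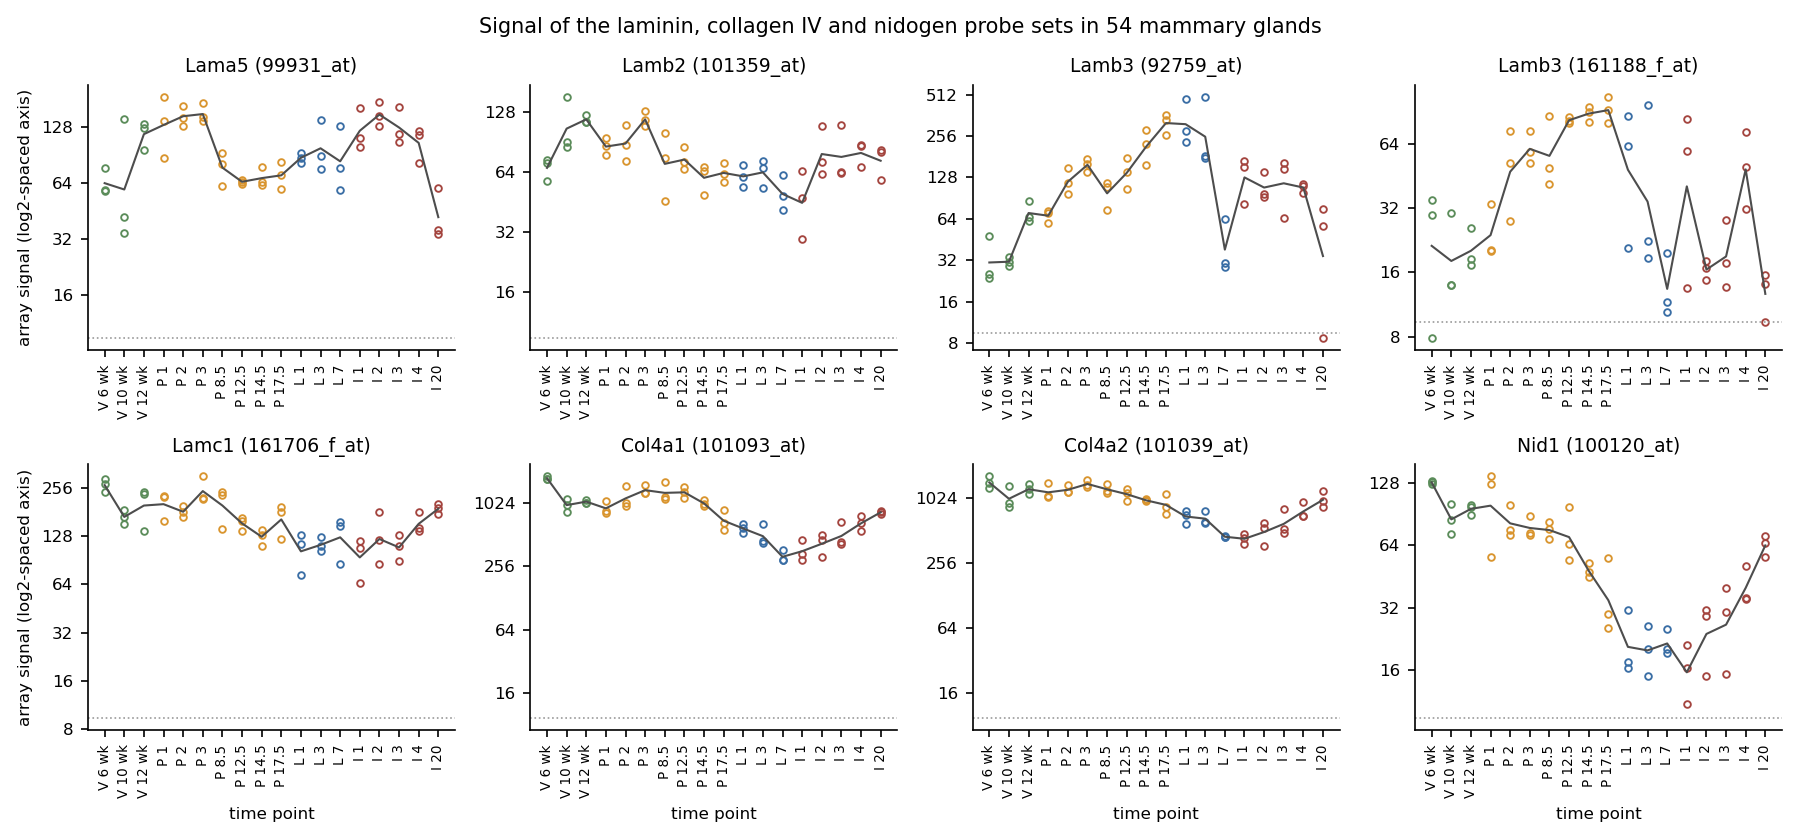
Array signal (vertical axis, log2-spaced) of the 8 tested probe sets at the 18 time points (V virgin, P pregnancy, L lactation, I involution). Circles are single mice, the line joins geometric means, and the dotted line is the floor of 9.4. The first Lamb3 probe set rises to a geometric mean of 318 at pregnancy day 17.5 and stands at 38.2 at lactation day 7. Col4a1 is at its lowest on that day, 316.

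Lama5 encodes the alpha chain of the main laminins of mature epithelium and vessels. Its signal was 57.6, 58.4 and 77.2 in mice A, B and C at 6 weeks, and 95.6, 132.0 and 126.8 at 12 weeks. The 3 mice of pregnancy day 3, at 137.3, 144.3 and 171.2, made the highest geometric mean, 150. By pregnancy day 12.5 the mice stood at 64.7, 66.7 and 63.4, below every mouse of day 3. Signals in lactation overlapped with both, from 58.5 to 140.0. On involution day 2 they were 146.1, 129.9 and 173.1, and on involution day 20 they were 33.9, 35.9 and 60.3, the lowest geometric mean of the course at 41.9. At virgin week 10 mouse C, at 140.7, stood apart from mice A and B, at 34.6 and 42.2.

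Lamb2 encodes a beta chain found in vessels, muscle and nerve as well as in mature epithelium. It was 58.1, 73.7 and 71.1 at 6 weeks and 124.8, 114.7 and 114.2 at 12 weeks, with no overlap. The lowest ones were 49.8 at lactation day 7 (mice at 61.8, 48.5 and 41.3) and 44.9 at involution day 1 (29.5, 47.4 and 64.8). These 2 neighbours overlapped.

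Lamb3, the epithelial beta3 chain, had the widest range of the members, 3.37 on the log2 scale between its highest and lowest geometric means. Virgin mice gave 25.3, 48.1 and 23.9 at 6 weeks, 31.3, 28.8 and 33.6 at 10 weeks, and 61.6, 65.8 and 86.6 at 12 weeks. In early pregnancy the signals were 72.4, 71.1 and 59.4 on day 1, 115.9, 97.5 and 149.6 on day 2, and 141.2, 175.5 and 160.6 on day 3. All mice of days 2 and 3 were above all virgin mice. From mid pregnancy the values were 73.9, 116.7 and 109.0 on day 8.5, 139.2, 178.2 and 105.7 on day 12.5, 283.3, 157.3 and 223.8 on day 14.5, and 365.0, 262.4 and 336.3 on day 17.5. Lactation began at the same level, with 472.8, 231.9 and 278.2 on day 1 and 495.4, 184.2 and 176.7 on day 3. Mouse A was the highest on both days, and the days overlapped with pregnancy day 17.5. On lactation day 7 the signals were 30.6, 63.5 and 28.6, below every mouse of the preceding days from pregnancy day 2 on.

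After removal of the pups the Lamb3 signals were 152.0, 82.1 and 167.3 on day 1, 97.0, 91.5 and 140.5 on day 2, 146.2, 64.6 and 163.7 on day 3, and 114.1, 110.7 and 98.8 on day 4. These days overlapped with each other and all lay above lactation day 7. On involution day 20 the mice gave 8.7, 56.7 and 75.4, a spread that takes in the virgin levels and includes 1 value under the floor. The second probe set had a lower signal and correlated with the first at 0.76 over the 18 time-point means. It also peaked at pregnancy day 17.5, at a geometric mean of 91.8, but its course differed in part. It was already at 48.3 on lactation day 1 and 34.3 on day 3. Between 6 and 12 weeks it did not rise (21.3 and 20.2), and its lowest geometric mean, 12.7, was that of involution day 20. It also departed from the first on involution days 2 and 3, at 16.5 and 19.0. Its mice were widely spread on involution day 1 (SD of 1.39 on the log2 scale).

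Lamc1, the gamma1 chain, had its highest geometric mean at 6 weeks, 267, from mice at 293.3, 269.4 and 240.4. At 12 weeks the mice gave 137.1, 236.1 and 242.4, and on pregnancy day 3 they gave 219.7, 222.0 and 302.6. Signals on lactation day 7 were 157.4, 86.1 and 147.3, which overlapped with mouse A of 12 weeks. The lowest geometric mean, 94.4, was that of involution day 1 (65.2, 119.6 and 108.0), and on involution day 20 the mice were back at 176.2, 191.5 and 202.6.

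Col4a1 and Col4a2 encode the chains of the most widespread collagen IV trimer, which holds both. Col4a1 was 1732.4, 1720.0 and 1827.7 at 6 weeks, above all other mice of the course, and 1031.0, 1029.8 and 1102.3 at 12 weeks. It was 1276.2, 1279.4 and 1519.9 on pregnancy day 3 and 1288.6, 1143.8 and 1460.4 on day 12.5. Lower values followed: 567.9, 667.1 and 884.6 on pregnancy day 17.5, 591.4, 643.1 and 529.7 on lactation day 1, 644.8, 442.0 and 427.6 on day 3, and 295.4, 291.8 and 366.9 on day 7. Neighbouring days overlapped up to lactation day 3, and every mouse of lactation day 7 lay below those of day 3. In involution the signal was 460.5, 296.3 and 334.4 on day 1, 659.3, 769.7 and 557.0 on day 4 and 844.6, 804.5 and 855.2 on day 20.

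Col4a2 took the same path. It gave 1232.2, 1353.9 and 1099.3 at 12 weeks, 448.2, 441.7 and 444.7 on lactation day 7, 470.7, 382.1 and 429.2 on involution day 1, 688.6, 930.0 and 692.9 on day 4 and 834.5, 954.0 and 1176.5 on day 20. Over the 18 time-point means the log2 signals of both genes correlated at r = 0.97, and over the 54 arrays their deviations from the time-point means correlated at 0.59. This is a description, since the points share arrays and their scaling.

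Nid1 encodes nidogen-1, which binds the laminin gamma1 chain and collagen IV. Its mice stood at 128.9, 130.8 and 127.0 at 6 weeks, 98.3, 100.1 and 90.1 at 12 weeks, and 47.5, 45.1 and 52.5 on pregnancy day 14.5. On pregnancy day 17.5 they were 25.6, 55.6 and 29.7, and through lactation they lay between 14.9 and 31.1. The lowest values, 21.2, 11.0 and 16.4, came on involution day 1. They were 50.7, 35.1 and 35.7 on day 4 and 56.4, 65.7 and 70.9 on day 20, above all mice of lactation and below all mice of 12 weeks. The Nid1 course correlated at r = 0.93 with Col4a2, 0.91 with Col4a1 and 0.91 with Lamc1 (n = 18 time-point means). With the first Lamb3 probe set it correlated at -0.47, and with the second at 0.00.

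Between 6 and 12 weeks of age, which the comparison of virgin glands covers, 3 laminin probe sets rose and Col4a1 fell. Lamb3 (its first probe set) rose by 1.20 ± 0.45 (SE) on the log2 scale, Lama5 by 0.87 ± 0.33, and Lamb2 by 0.81 ± 0.27, with adjusted p-values of 0.039, 0.038 and 0.02 in limma. Col4a1 fell by 0.74 ± 0.20, or 1.67-fold (adjusted p = 0.0053). The second Lamb3 probe set gave -0.08 ± 0.53. Thus 4 of 8 probe sets were called, where 29.8% of all 8640 were, 17.2% higher and 12.5% lower. The median over the members was -0.14 and that over all probe sets was 0.17. The ratio of 3' to 5' signal of a control gene is a sign of RNA integrity, and here the controls differed in direction. For Gapdh it was 2.58 ± 0.46 (SD, n = 3) at 6 weeks and 3.95 ± 1.52 at 12 weeks. The beta-actin ratio went the other way, at 3.75 ± 0.363 (SD, n = 3) at 6 weeks and 1.99 ± 0.487 at 12 weeks. With that ratio as a covariate none of the 4 calls remained (adjusted p = 0.14 for Col4a1 and at least 0.28 for the laminins), and scaling arrays to 1 median, which shifts the median of all probe sets by -0.20 and the share of calls that are higher from 57.9% to 34.3%, left Col4a1 alone. Leaving out mouse A of 6 weeks left 1 call, Col4a1, leaving out mouse B or C left 3, and leaving out any mouse of 12 weeks left 2. The summed signal of 6 fibroblast markers was 20927 to 22423 at 6 weeks and 12398 to 13998 at 12 weeks, and that of 7 luminal markers was 1281 to 1385 and 2208 to 3760. Their part in these differences was not tested. In RNA from whole glands, fewer cells of a type and less RNA per cell cannot be told apart.

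On pregnancy day 3 against 12 weeks 0 of 8 probe sets passed in limma, where 4.24% of all did, 2.69% higher and 1.55% lower. The Lamb3 probe sets came nearest, at 1.17 ± 0.45 and 1.58 ± 0.53 (adjusted p = 0.13 and 0.079), and in fits with array weights or with the 6 arrays alone both passed. These 2 were also the probe sets with an unadjusted p under 0.05. Scaling arrays to 1 median turns the share of all calls that are higher from 63.4% to 47%.

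By mid pregnancy the beta chains had moved in opposite directions. On day 14.5 against 12 weeks Lamb3 rose by 1.61 ± 0.45 (3.05-fold, adjusted p = 0.0097), its second probe set by 2.13 ± 0.53, while Lamb2 fell by 0.97 ± 0.27 (1.96-fold, 0.0085) and Nid1 by 0.99 ± 0.33 (0.03). Col4a1, at -0.06 ± 0.20, gave no call. So 4 of 8 were called, 2 higher and 2 lower, where 17.7% of all were, 8.82% higher and 8.85% lower. Median scaling of the arrays shifts the median of all probe sets by 0.18 and the share of calls that are higher from 49.9% to 72%, and it takes the Nid1 call away, as leaving out any 1 of the 6 mice does. The Lamb3 call of the first probe set was lost without mouse A of day 14.5 and the Lamb2 call without mouse C of that day (adjusted p = 0.057 each). Without mouse A of 12 weeks Lamc1 was called too (-0.92, 0.025). Of the markers, 4 of 6 basal and 4 of 7 luminal ones were higher, with sums of 3472 to 3968 and 4556 to 5020 on day 14.5 beside 1438 to 1764 and 2208 to 3760 at 12 weeks. Lower were 5 of 9 endothelial markers (1205 to 1261 beside 1898 to 2061) and 4 of 7 fat cell markers (6618 to 7472 beside 10157 to 10806). Their part in these differences was not tested.

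The comparison of pregnancy day 17.5 with 12 weeks was added after the levels were seen. It called 5 of 8, where 19.6% of all were called, 8.65% higher and 11.0% lower. Lamb3 was 4.51-fold higher (2.17 ± 0.45, adjusted p = 0.00035), and its second probe set 4.54-fold higher. Nid1 was 2.76-fold lower (-1.46 ± 0.33, 0.00093), Lamb2 1.86-fold lower and Col4a1 1.52-fold lower. The Lamb2 call was lost without mouse A of 12 weeks or mouse B of day 17.5, the Col4a1 call without any mouse but C of day 17.5, and Col4a2 was called (-0.65, 0.023) without that mouse. Median scaling, which moves the share of calls that are higher from 44.1% to 60.8%, lost Col4a1. The summed signal of 6 basal markers was 1438 to 1764 at 12 weeks and 3021 to 3732 on day 17.5, and that of the luminal markers 2208 to 3760 and 4504 to 6493. Both sums were higher, as Lamb3 was, with 5 of 6 basal and 4 of 7 luminal markers called higher and 0 lower. Trp63, Krt8, Krt18 and Krt19 gave no call, and Elf5 went from a geometric mean of 59 to 1226. Fibroblast markers went from 12398 to 13998 at 12 weeks to 4982 to 8582, with 6 of 6 lower, endothelial markers from 1898 to 2061 to 768 to 1231, with 7 of 9 lower, and fat cell markers from 10157 to 10806 to 4802 to 7816, with 5 of 7 lower, as Nid1, Lamb2 and Col4a1 were. The part of these cell types was not tested.

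From pregnancy day 17.5 to lactation day 1 none of the 8 probe sets passed in limma, where 23.3% of all did, 10.1% higher and 13.2% lower. Lamb3 gave -0.03 ± 0.45, and the nearest to a call was Lamc1, at -0.66 ± 0.26 (adjusted p = 0.058). An unadjusted p under 0.05 was reached by 2, Lamc1 and Nid1. The Lamc1 difference passed when arrays were scaled to 1 median, without mouse B of pregnancy day 17.5 or without mouse A of lactation day 1, and the Nid1 difference without mouse A of either day, which makes 2 calls without mouse A of lactation day 1.

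Within lactation Lamb3 fell steeply. The comparison of lactation days 7 and 3, also added after the levels were seen, gave -2.73 ± 0.45 on the log2 scale, a 6.62-fold lower signal (adjusted p = 0.00017). No other member was called, and all probe sets together showed 2.84% called, 1.39% higher and 1.45% lower. The second Lamb3 probe set gave -1.36 ± 0.53 (adjusted p = 0.18) and Col4a1 -0.65 ± 0.20 (0.061), which was called without mouse C of day 3 (-0.76, 0.049). A fit on the 6 arrays alone lost the Lamb3 call (adjusted p = 0.15). The summed basal markers were 2053 to 3415 on day 3 and 1954 to 2446 on day 7, and the luminal ones 3132 to 4275 and 3464 to 3638, and both ranges overlapped. Fibroblast markers were 2384 to 4721 on day 3 and 1521 to 2169 on day 7, with 3 of 6 lower. The part of these cells was not tested.

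In full lactation, on day 7 against 12 weeks, 5 of 8 probe sets were lower and 0 higher. Nid1 was 4.47-fold lower (-2.16 ± 0.33, adjusted p = 5.2e-07), Col4a1 3.33-fold (-1.74 ± 0.20, 8.6e-10), Col4a2 2.75-fold (-1.46 ± 0.19, 1.8e-08) and Lamb2 2.36-fold (-1.24 ± 0.27, 0.00015). Lamc1 was 1.58-fold lower, at -0.66 ± 0.26 (0.031), a call that was lost without mouse B or C of 12 weeks, without mouse B of lactation day 7, or in a fit on the 6 arrays. Lama5 gave -0.49 ± 0.33 and Lamb3 -0.89 ± 0.45, neither called, but Lamb3 was called without mouse B of lactation day 7 (-1.25, 0.034). This is the comparison in which most probe sets moved: 51.6% of all were called, 24.3% higher and 27.2% lower. The members' median was -1.06 beside -0.01 for all.

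The same comparison moved the markers of the stromal cell types that also make basement membrane. The summed signal of 7 white fat cell markers was 10157 to 10806 at 12 weeks and 1559 to 1885 on lactation day 7, that of 9 endothelial markers 1898 to 2061 and 682 to 821, and that of the fibroblast markers 12398 to 13998 and 1521 to 2169. Of these lists 6 of 7, 7 of 9 and 6 of 6 members fell, and 1 endothelial marker, Pecam1, rose. No marker of the 3 lists was at the floor in all 3 arrays of either time point. Basal markers went from 1438 to 1764 to 1954 to 2446, with 2 of 6 higher and 0 lower. Luminal markers summed to 2208 to 3760 at 12 weeks and 3464 to 3638 on lactation day 7, with 3 of 7 higher and 2 lower. Among these, Elf5 went from a geometric mean of 59 to 1769, while Krt19 was 4.93-fold and Krt18 2.59-fold lower. How much of the lower collagen IV and nidogen signal goes with these cell types was not tested.

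**Figure D2:**
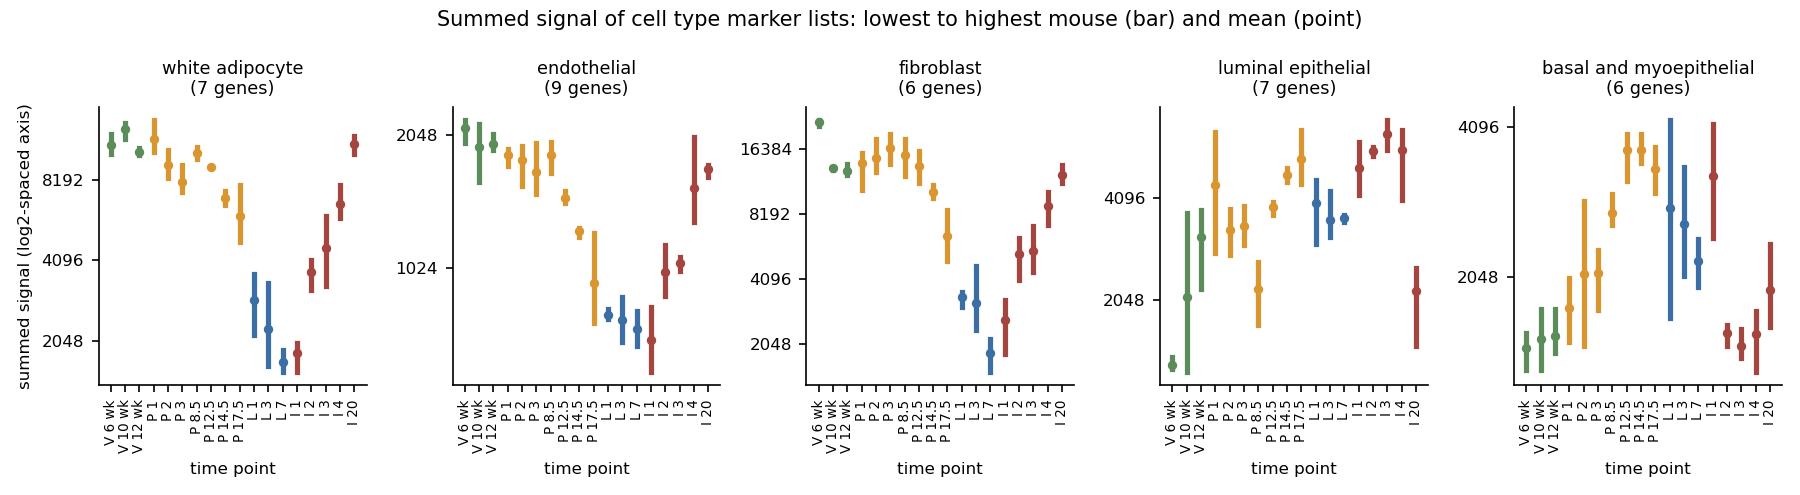
Summed signal (vertical axis, log2-spaced) of the marker genes of 5 cell types at the 18 time points, with a bar from the lowest to the highest of 3 mice and a point at the mean. The fat cell, endothelial and fibroblast sums are low from lactation day 1 to involution day 1, as Col4a1, Col4a2 and Nid1 are. The mean luminal and basal sums of those days lie above those of virgin week 12. Luminal markers went both ways, with 3 of 7 higher and 2 lower on lactation day 7 against 12 weeks.

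On the first day after removal of the pups Lamb3 rose, and it was the 1 member called. It was 3.35-fold higher than on lactation day 7 (1.74 ± 0.45, adjusted p = 0.0029), and its second probe set 3.02-fold higher (1.60 ± 0.53, 0.023). The other members gave differences between -0.46 ± 0.33 for Nid1 and 0.54 ± 0.33 for Lama5, with Col4a1 at 0.18 ± 0.20 and Col4a2 at -0.06 ± 0.19. Thus 2 of 8 were called, both higher and both of 1 gene, where 25.4% of all were, 14.1% higher and 11.3% lower. The call of the second probe set was lost without mouse A or C of either day. Luminal markers summed to 3464 to 3638 on lactation day 7 and 4164 to 5998 on involution day 1, basal markers to 1954 to 2446 and 2458 to 4162, and fat cell markers to 1559 to 1885 and 1561 to 2003. Fibroblast markers summed to 1521 to 2169 and 1841 to 3297, with 4 of 6 called higher, and the Schwann cell marker Mbp was higher by 0.89 ± 0.19 (limma adjusted p = 0.00048). The part of these cells in the Lamb3 rise was not tested.

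By the fourth day the collagen IV chains, Nid1 and Lamb2 had risen as well. Against lactation day 7 there were 6 of 8 probe sets higher and 0 lower: Lamb3 by 1.50 ± 0.45 and 1.86 ± 0.53, Col4a1 by 1.05 ± 0.20 (2.08-fold, adjusted p = 2.8e-05), Nid1 by 0.89 ± 0.33 (0.024), Col4a2 by 0.78 ± 0.19 (0.00082) and Lamb2 by 0.68 ± 0.27 (0.034). Of all probe sets 44.4% were called, 22.7% higher and 21.7% lower. Fat cell markers had reached 5899 to 7865, endothelial ones 1304 to 2034 and fibroblast ones 7276 to 10354. Luminal markers summed to 3464 to 3638 on lactation day 7 and 4039 to 6505 on involution day 4, with 4 of 7 higher and 1 lower. Macrophage markers summed to 281 to 372 and 2985 to 3475, with 5 of 5 higher. Basal markers summed to 1954 to 2446 and 1317 to 1747, with 2 of 6 lower. The part of these cell types was not tested. The Nid1 call was lost without mouse B or C of lactation day 7 or mouse A of involution day 4, and the Lamb2 call without mouse B or C of either day. Both involution comparisons share the lactation day 7 arrays with each other and with the lactation comparison, so their opposite signs are not separate evidence.

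On involution day 20 against 12 weeks 1 of 8 was called. Lama5 was 2.79-fold lower, at -1.48 ± 0.33 (adjusted p = 0.004), and this call was lost only in the fit on the 6 arrays (adjusted p = 0.079). Across all probe sets 2.64% were called, 1.27% higher and 1.37% lower, and median scaling moves the share of calls that are higher from 48.2% to 65.7%. Without mouse C of day 20 Lamb3 was called as well (-1.61, adjusted p = 0.048), which makes 2. Col4a1, Col4a2 and Lamc1 gave -0.34 ± 0.20, -0.32 ± 0.19 and -0.07 ± 0.26, and Nid1 gave -0.58 ± 0.33. Luminal markers summed to 1491 to 2534 on day 20 and 2208 to 3760 at 12 weeks, and fat cell markers to 10248 to 11984 and 10157 to 10806. Their part in the Lama5 difference was not tested.

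**Figure D3:**
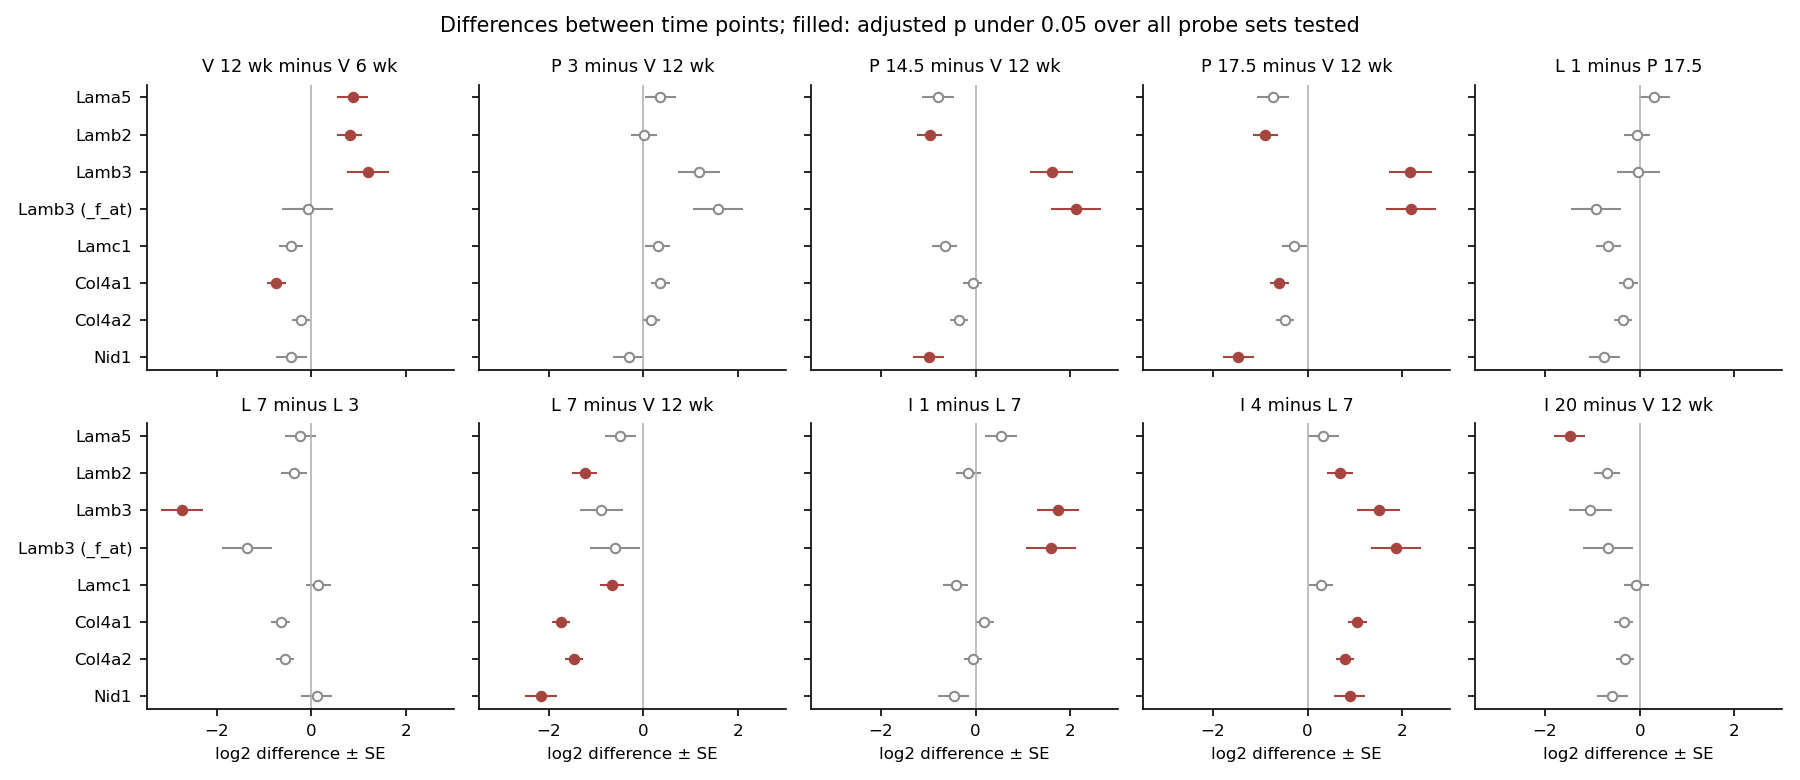
Difference in log2 signal (horizontal axis) with its standard error for the 8 tested probe sets in 10 comparisons of time points, 3 mice against 3. Filled points have an adjusted p under 0.05 over all probe sets tested. Lamb3 is called higher on involution day 1, when Col4a1 is at 0.18, and 6 probe sets are called higher on day 4.

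Whether members moved by different amounts between stages was asked within each array, for 5 pairs and 2 steps, with exact two-sided permutation tests over arrays and Benjamini-Hochberg adjustment over the 10 tests. Lactation (9 arrays) was set against virgin glands (9 arrays), and involution days 1 to 4 (12 arrays) against lactation. The stages pool unlike time points, and the tests treat their mice as exchangeable. From virgin to lactation the log2 difference Lamb3 minus Lamb2 went from -1.21 ± 0.57 (SD) to 1.32 ± 1.41, a shift of 2.53 (exact p = 0.00037, adjusted 0.0012). With the second Lamb3 probe set the shift was 1.21 and the call was lost (exact permutation test, adjusted p = 0.051). Lamb3 minus Col4a1 shifted by 3.26, from -4.90 ± 0.91 to -1.64 ± 1.19 (exact p = 8.2e-05, adjusted 0.00041). The wide SD in lactation comes from day 7, whose mice lay below those of days 1 and 3 in both pairs.

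Nid1 fell relative to Lamc1 by 1.44, with all 9 lactation arrays below all 9 virgin arrays (exact p = 4.1e-05, the smallest these 48620 arrangements allow, adjusted 0.00041). Lama5 minus Lamc1 shifted by 1.10 (exact p = 0.0082, adjusted 0.02), a call lost without the mice of 6 weeks (0.79), lactation day 1 (1.05) or day 3 (1.03), and with the second probe set of each gene, both too dim to pass the filter, the shift was -0.15. The shift for the collagen IV chains was small: Col4a1 minus Col4a2 went from 0.02 ± 0.38 to -0.37 ± 0.23 (exact p = 0.02, adjusted 0.041). That last call was lost without the mice of 6 weeks (-0.25), of lactation day 3 (-0.38) or of day 7 (-0.33). From lactation to involution none of the 5 pairs passed (adjusted p of 0.12 to 0.35 in exact permutation tests, and no unadjusted p under 0.05). Leaving out lactation day 7 there gave called shifts of -1.42 for Lamb3 minus Lamb2 and -1.10 for Lamb3 minus Col4a1, leaving out lactation day 1 one of 0.21 for Col4a1 minus Col4a2, and leaving out involution day 4 one of 0.63 for Lama5 minus Lamc1.

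**Figure D4:**
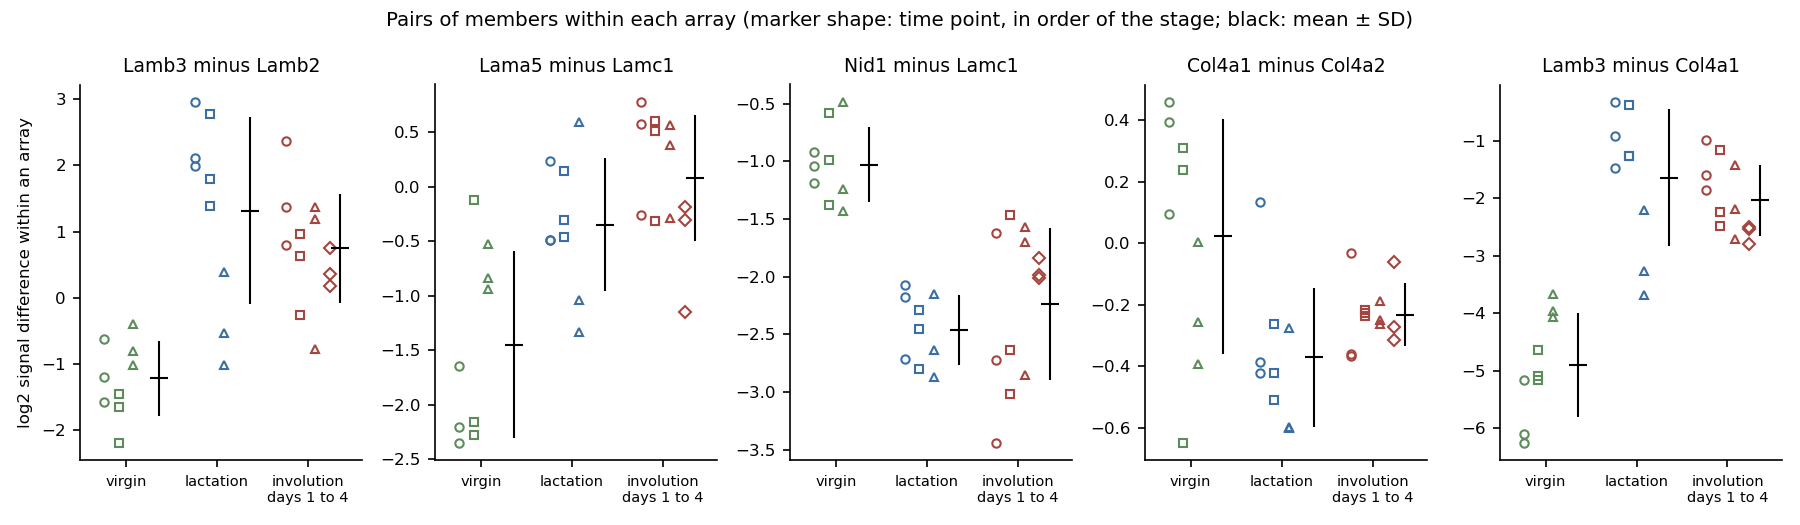
Difference in log2 signal between 2 members within each array (vertical axis) in virgin, lactation and involution glands. Each marker is 1 mouse, its shape gives the time point within the stage, and black bars show mean ± SD. The lactation day 7 mice (triangles) lie lowest in lactation for Lamb3 minus Lamb2 and Lamb3 minus Col4a1.

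Other genes of the basement membrane were taken from fixed lists. On lactation day 7 against 12 weeks 4 of 5 measured laminin chains fell and 1 rose, where 24.3% of all probe sets were called higher and 27.2% lower. Lama2, the alpha chain of muscle and stroma, was 7.8-fold lower (217 to 27.8), Lama4, a vessel and fat chain, 4.72-fold, and Lama3, the partner of Lamb3, 2.95-fold. Lama1, the alpha chain of early embryonic laminin, was 2.99-fold higher (24.1 to 71.8), and it was already higher on pregnancy day 3 (3.04-fold, limma adjusted p = 0.0011). Of the 11 measured linkers and further components 8 fell and 1 rose: Fbln2 was 8.45-fold lower, Smoc1 8.36-fold, perlecan (Hspg2) 6.85-fold, and Tinagl1 2.23-fold higher. Among 9 receptors 3 fell, near the share of all probe sets (Itgb4 by 3.64-fold, Dag1, Cd151), among 6 enzymes that cut the membrane 3 fell (Mmp3 by 9.29-fold), and among 5 collagen processing enzymes 2 rose and 2 fell. P4hb, which also serves in the folding of other secreted proteins, was 5.69-fold higher and the collagen chaperone Serpinh1 4.61-fold lower.

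Itgb4, Itga6 and Col4a5 rose with Lamb3 on involution day 1, and Lama3 did not. The beta4 integrin chain went from 22.5, 29.0 and 19.2 in the 3 mice of lactation day 7 to 191.3, 244.3 and 271.9, a difference of 3.33 ± 0.36 (limma adjusted p = 1.2e-09). Its partner Itga6 went from 97.4, 101.1 and 77.0 to 317.3, 283.2 and 224.9, at 1.58 ± 0.26 (8.7e-06). In all, 5 of 9 receptors rose and 0 fell, where 14.1% of all probe sets were called higher and 11.3% lower, with Cd151, Ddr1 and Itgb1 as the others. Col4a5, a chain of a rarer collagen IV trimer, went from 15.5, 17.6 and 20.1 to 135.9, 122.2 and 129.4, at 2.87 ± 0.38 (9.9e-08), on a day when Col4a1 and Col4a2 gave no call. None of these groups overlapped. Lama3 stayed low, at 18.7, 11.3 and 16.5 on involution day 1, and stood at 114.6, 71.1 and 67.6 on day 4.

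Among the linkers, agrin (Agrn) rose by 1.52 ± 0.18 on involution day 1, Sparc by 0.80 ± 0.29, and Tinagl1 fell by 2.20 ± 0.25. In the other lists Lama1 and P4ha2 were called lower on that day and Mmp3 higher. By day 4 there were 3 of 5 laminin chains, 8 of 11 linkers, 6 of 9 receptors and 5 of 6 cutting enzymes higher, and 1 linker, Tinagl1, lower. Of the 5 collagen processing enzymes 2 were higher (P4ha1 and Serpinh1) and 3 lower (P4ha2, P4hb and Plod3). Of all probe sets 22.7% were called higher and 21.7% lower. Stromelysin-1 (Mmp3), a protease that cleaves laminin and nidogen, went from 31.3, 35.7 and 34.1 to 1103.1, 785.5 and 830.0, 26.6-fold higher (4.73 ± 0.45, limma adjusted p = 1.8e-11). Mmp2, Adamts1, Itga2, Col4a3 and Col4a4 were too dim to be measured, and Lamc3, Col4a6, Ntn4, Pxdn, Itga1, Bcam, Plod1, Plod2 and P3h1 were not analysed here.

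**Figure D5:**
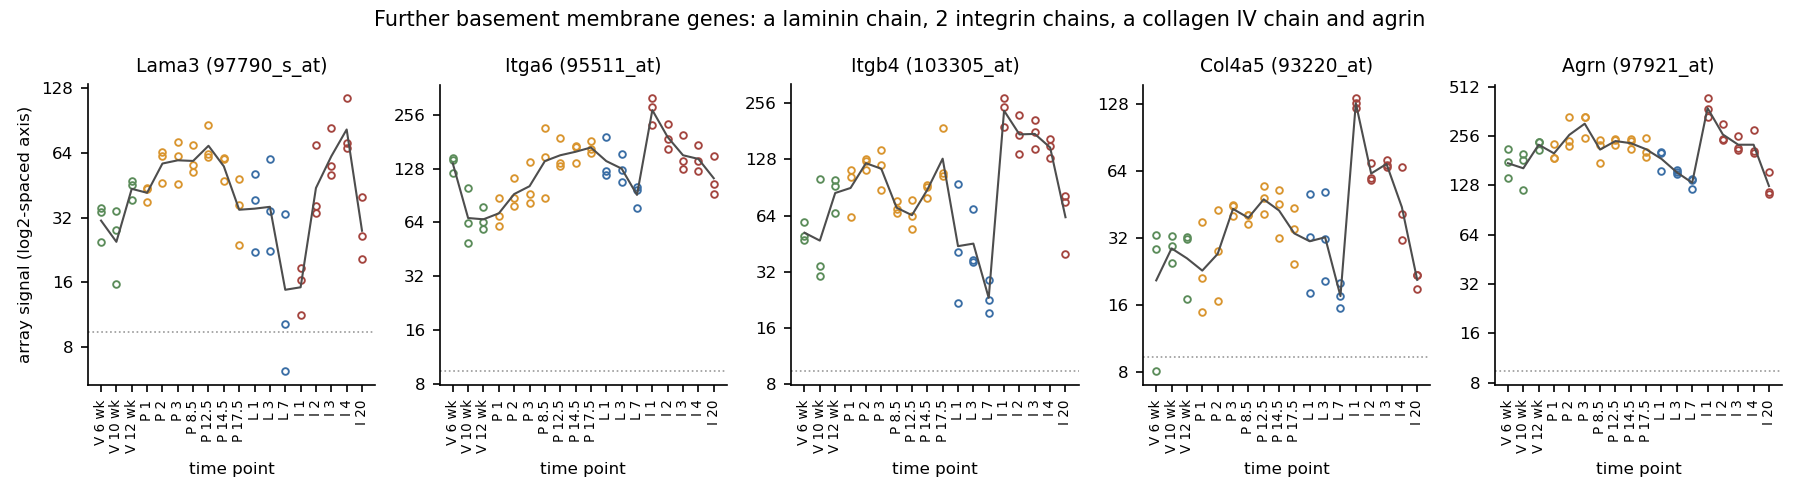
Array signal (vertical axis, log2-spaced) of Lama3, Itga6, Itgb4, Col4a5 and Agrn at the 18 time points. Circles are single mice, lines join geometric means, and the dotted line is the floor of 9.4. Itgb4 and Col4a5 stand at geometric means of 233 and 129 on involution day 1, from 23.2 and 17.6 on lactation day 7, while Lama3 is at 15.2.

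The other comparisons also called list members. Between 6 and 12 weeks 2 of 11 linkers rose and 2 fell (Nid2, the second nidogen, was 2.99-fold lower). Of 9 receptors 3 rose and 3 fell, and 3 of 5 processing enzymes rose. Between these ages the member calls changed with the beta-actin covariate and with median scaling. No such alternatives are given for the list calls. On pregnancy day 14.5 against 12 weeks 1 of 5 laminin chains rose and 2 fell, and 1 of 11 linkers rose and 4 fell. Itga6 was the 1 receptor of 9 that was higher, at 2.39-fold, and 2 of 5 processing and 2 of 6 cutting enzymes fell. On pregnancy day 17.5 against 12 weeks 1 of 5 laminin chains rose and 3 fell, 1 of 11 linkers rose and 5 fell, 1 of 9 receptors rose, and 3 of 5 processing and 2 of 6 cutting enzymes fell. From pregnancy day 17.5 to lactation day 1 there were 4 of 9 receptors lower, with Itgb4 at 2.93-fold and Dag1 at 2.1-fold, and 4 of 11 linkers lower. Lama2 was lower too, and P4hb was higher. On involution day 20 against 12 weeks Itga3 (4.95-fold) and Agrn (1.78-fold) were lower and Mmp9 (3.76-fold) was higher. The shares of all probe sets called higher and lower were 17.2% and 12.5% between the virgin ages and 2.69% and 1.55% on pregnancy day 3. They were 8.82% and 8.85% on pregnancy day 14.5, 8.65% and 11.0% on day 17.5, and 10.1% and 13.2% on lactation day 1. For lactation day 7 against day 3 they were 1.39% and 1.45%, and for involution day 20 they were 1.27% and 1.37%.

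The genes whose 18 time-point means ran most like each member were found by Pearson correlation over all probe sets with 1 symbol, as a description. For Nid1 they were Twist1 (r = 0.992), Ppp2r1b (0.979) and Fmo1 (0.977), and for Col4a1 Armcx2 (0.972), Rcn1 (0.971) and Itm2a (0.962). Col4a2 ran with 3 further matrix genes, Col18a1 (0.980), Col6a2 (0.970) and Lama4 (0.968). The closest to Lamc1 were Pbx3 (0.932), Egr2 (0.929) and the laminin receptor Dag1 (0.929). Likeness was lower for the other laminin chains: Palm (0.901), Akt2 (0.889) and Id1 (0.873) for Lamb2, Foxp1 (0.896), Sfn (0.864) and Prkd2 (0.824) for Lama5, and Nudt1 (0.873), Wdr48 (0.860) and Cdc42se1 (0.858) for Lamb3.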

How the data were processed

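Per the submitters' processing notes, the deposited signal intensities were computed by the authors with MAS5 (version not stated there), and array means after 2% trimming were 100.05 to 100.07. A floor of 9.4, the 25th percentile of all values, was applied before log2. A probe set was kept if some time point had its 3 arrays all over 22.8, the 40th percentile (8640 of 12488, not collapsed to genes, 66 control probe sets left out). A single limma 3.58.1 model (R 4.3.3) over the 54 arrays gave each time point its mean, with trended eBayes variances; residual degrees of freedom were 36 and prior ones 6.8. Two-sided p-values received adjustment by Benjamini-Hochberg over all kept probe sets, and a call is an adjusted p under 0.05. Folds are on the floored scale. Where a gene had several probe sets, pair and likeness comparisons used the one with the highest mean log2 signal.

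Probe sets were named from the platform annotation and updated by Entrez identifier. Named genes were all probe sets of the 7 members, the 3 genes most like each by Pearson correlation, and up to 4 called members of each fixed list per comparison, with further values chosen after they were seen. The members, lists and comparisons were chosen with earlier results of these data known. Markers of Schwann cells (1 of 3 genes measured), skeletal muscle (4 of 4) and macrophages (5 of 5) were summed too: macrophage markers gave 1821 to 2120 at 12 weeks, 281 to 372 on lactation day 7 and 2985 to 3475 on involution day 4. Schwann cell (92.3 to 138, 76.6 to 125 and 129 to 154) and muscle markers (123 to 2540, 192 to 827 and 451 to 2600) gave no call on lactation day 7 against 12 weeks or involution day 4 against lactation day 7. The Schwann cell marker Mbp was called higher on involution day 1 (0.89) and at 12 against 6 weeks (0.52, limma adjusted p = 0.039). Alternatives were other floors, scalings and filters, array weights, a fit of 6 arrays, the letter as a block, leaving out each array, and, added later, the beta-actin ratio as a covariate. Scripts were tested on simulated data. Python 3.11.15 with pandas 2.3.3, numpy 2.4.6, scipy 1.17.1 and matplotlib 3.10.9 handled tables and figures.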

Additional observations from a re-analysis of the deposited data

How the results depend on the processing

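Of 1861 values of single probe sets under the alternatives, 1774 kept their direction and their side of the threshold, 60 lost a call, 27 gained one and 0 turned a called direction; 32 that were called in neither fit changed sign. Calls held under all settings tried for Nid1, Col4a1, Col4a2 and Lamb2 on lactation day 7 against 12 weeks, for Col4a1, Col4a2 and Lamb3 on involution day 4, for the first Lamb3 probe set on involution day 1, and for Lamb3 and Nid1 on pregnancy day 17.5. Single calls also changed on lactation day 7 against 12 weeks and on involution day 4, as given with those comparisons above. With median scaling Nid1 lost its call on pregnancy day 14.5 and Col4a1 on day 17.5. Apart from these changes, the counts of called probe sets moved as follows, and the cause was not tested. For 12 against 6 weeks (4) the count was 2 with quantile normalization, 1 with median scaling, 2 with no filter, 0 with the beta-actin covariate, and 1 to 3 without single arrays. For pregnancy day 3 (0) it was 1 with the higher floor, 2 with array weights and 2 with the 6 arrays alone. For day 14.5 (4) it was 7 with array weights and 2 to 4 without single arrays. For lactation day 1 (0) it was 1 with median scaling and 0 to 2 without single arrays. For involution day 1 (2) it was 1 with 1 probe set per gene, which by construction drops the second Lamb3 probe set, 1 with the 6 arrays alone and 1 to 2 without single arrays. For involution day 20 (1) it was 0 with the 6 arrays alone, which have fewer residual degrees of freedom, and 1 to 2 without single arrays. For pregnancy day 17.5 (5) it was 3 to 6 without single arrays. For lactation day 7 against day 3 (1) it was 2 with the higher floor, 2 with the covariate, 0 with the 6 arrays alone and 1 to 2 without single arrays.

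In the pair tests from virgin to lactation, the second Lamb3 probe set gave 1.21 for Lamb3 minus Lamb2 (exact permutation test, adjusted p = 0.051) and the other probe sets gave -0.15 for Lama5 minus Lamc1. That pair gave 1.05 without lactation day 1, 1.03 without day 3 and 0.79 without week 6. Col4a1 minus Col4a2 gave -0.35 with quantile normalization, and -0.38, -0.33 and -0.25 without lactation day 3, day 7 and week 6. From lactation to involution, leaving out lactation day 7 gave -1.42 for Lamb3 minus Lamb2 and -1.10 for Lamb3 minus Col4a1, leaving out involution day 4 gave 0.63 for Lama5 minus Lamc1, and leaving out lactation day 1 gave 0.21 for Col4a1 minus Col4a2. The labels do not tie the letters A, B and C across time points, and deviations of same-letter arrays correlated at -0.095 to 0.079, so they do not pair the samples; with the letter as a replicate block the count for lactation day 1 was 1, and the shift of Col4a1 minus Col4a2 was -0.39 (exact permutation, adjusted p = 0.059), while no other count or pair test changed its call. Signal over background limits the dimmer probe sets: both Lamb3 probe sets had 1 array under the floor, and the lowest Nid1 signal was 11.0.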
